A study of Mus musculus with 30 samples.

Results

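Immunoglobulin gene segments were followed in whole B16 melanoma tumors. They were taken as the genes whose symbol begins with Ighv, Ighj, Ighd, Igkv, Igkj, Iglv or Iglj, or names a heavy, kappa or lambda constant region, with at least 1 count in any tumor. Ighmbp2, which encodes a helicase, was left out. Of 393 such segments among 39676 genes listed, 226 had a count, and together they held 57231 counts. Bulk RNA-seq had been done on 30 whole tumors 8 days after subcutaneous inoculation of C57BL/6 female mice, 10 tumors of each of 3 types. By their labels the types are B16-GFP, B16-IFNA4 and B16-IFNA9. The B16-GFP tumors grew from B16-F10 melanoma cells carrying the empty GFP vector, and the others from the same cells with a retroviral vector for murine IFNα4 or IFNα9 and enhanced GFP. All 3 lines also carried herpes simplex virus glycoprotein B (gB) and firefly luciferase (luc). Each type rests on 1 transduced cell line, so the interferon and the line cannot be told apart, and p-values measure the spread between tumors of a line.

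An antibody is made of paired heavy and light chains. In a developing B cell, 1 variable (V), in the heavy chain also 1 diversity (D), and 1 joining (J) segment are joined, and the variable part of the chain is spliced to a constant region. Naive B cells use the IgM and IgD constant regions, and class switching replaces them with IgG, IgA or IgE. Plasma cells, the antibody-secreting descendants of B cells, hold very large amounts of this RNA, and the descendants of 1 B cell share their V segments. In whole-tumor RNA, fewer cells of a type and less RNA per cell cannot be told apart.

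The V segments whose counts lay most in a single tumor are shown first, because these tumors recur in the results. They are the 5 with the highest share of their counts in 1 tumor among the 22 V segments with at least 50 counts. Each run is the last 90 coding bases of the germline segment from GENCODE M21 transcripts (GRCm38), 5′ to 3′, with the last in-frame cysteine codon in capitals. The bases after this codon begin the part of the antibody that joining makes variable.
Ighv1-4: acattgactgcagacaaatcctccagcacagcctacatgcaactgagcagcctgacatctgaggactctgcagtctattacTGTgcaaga
Igkv4-55: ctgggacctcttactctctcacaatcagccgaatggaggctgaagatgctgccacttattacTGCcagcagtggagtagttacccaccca
Igkv14-111: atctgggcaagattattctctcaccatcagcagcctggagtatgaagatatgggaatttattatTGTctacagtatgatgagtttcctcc
Ighv5-17: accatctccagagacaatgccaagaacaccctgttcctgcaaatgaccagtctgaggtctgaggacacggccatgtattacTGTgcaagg
Igkv4-86: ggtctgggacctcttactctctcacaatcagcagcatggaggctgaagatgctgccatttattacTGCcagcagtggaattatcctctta
The genes lie at chr12:114487136-114487569 (Ighv1-4, minus strand), chr6:69607275-69607828 (Igkv4-55, minus), chr6:68256389-68256869 (Igkv14-111, plus), chr12:113859149-113859670 (Ighv5-17, minus) and chr6:68910411-68910973 (Igkv4-86, minus), each annotated as an immunoglobulin V gene.

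The lambda constant genes are shown because their counts are small and their sequences alike. These are their first 60 aligned coding bases, with every position at which the 3 genes differ in capitals.
Iglc1: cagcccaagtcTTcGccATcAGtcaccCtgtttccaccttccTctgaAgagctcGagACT
Iglc2: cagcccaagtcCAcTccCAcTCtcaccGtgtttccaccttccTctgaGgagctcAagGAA
Iglc3: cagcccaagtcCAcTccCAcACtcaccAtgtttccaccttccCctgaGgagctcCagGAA
Over these bases Iglc2 and Iglc3 differed at 4 positions and Iglc1 differed from each at 13. Reads were 50 bases long, and 22.3% of the 50-base stretches of Iglc3 occurred in another gene. Of the 205 V segments with a count, 175 shared at least 1 such stretch with another gene, and the median segment shared 23.3%. The other 30 V segments, among them Igkv14-111 and Iglv3, shared none, nor did Iglc1, and Iglc2 shared 7.65%. Counts of the segments that share stretches are uncertain, since the handling of reads that fit several genes is not given in the sources used here.

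Total counts per tumor ran from 14598517 to 19788383, and 3 counts, the limit that a count of 0 allows, corresponded to 0.153 to 0.268 CPM (counts scaled to library size by edgeR's TMM method) in a single tumor. These limits cover counting error only. B16-GFP tumor 7 stood apart, with a TMM factor of 0.768 against a highest factor of 1.10 and only 221 immunoglobulin counts. Tyr and Mitf, which mark melanocytic cells, had at least 239.2 and 169.6 CPM in every tumor and were lower in both interferon types than in B16-GFP (edgeR). Genes of keratinocytes summed to 803.7 to 6355 CPM in B16-GFP, 5732 to 8954 in B16-IFNA4 and 1727 to 7499 in B16-IFNA9 tumors, with B16-GFP tumor 7 the lowest. In B16-IFNA4 against B16-GFP, 3 of the 4 keratinocyte genes tested (Krt5, Krt10, Dsp) were higher, as were 31.3% of the 15926 genes tested. Skeletal muscle genes summed to between 1266 and 13486 CPM. Of the 4 tested, Acta1 and Ckm were lower in B16-IFNA9 than in B16-GFP tumors, as were 28.9% of all genes. Acta1, Myh4 and Tnnt3 were lower in B16-IFNA9 than in B16-IFNA4 tumors, as were 7.25% of all genes. None of the 4 was called in B16-IFNA4 against B16-GFP. The part of these tissues in the results was not tested.

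Constant regions held most of the signal. The 8 heavy chain constant genes took 80.8% of all immunoglobulin counts, and Ighm, the constant region of IgM, alone had 41295 counts. Igkc, the only kappa constant gene, took 8.88%, and the 3 lambda constant genes with a count took 1.38%. V segments were many and shallow: 100 heavy chain V segments held 1945 counts, 102 kappa V segments 2577 and 3 lambda V segments 418. Only Ighm, Igkc, Igha and Ighd had a count in all 30 tumors, 40 segments were seen in a single tumor, and 23 had a single count in all.

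Summed over the 226 segments, B16-GFP tumors ran from 19.7 CPM over a median of 76.5 to 160.4 CPM. B16-IFNA4 tumors ran from 57.4 over 113.6 to 383.2 CPM. B16-IFNA9 tumors ran from 55.2 over 101.4 to 142.8 CPM. The ranges of the 3 types overlapped, with the highest sum in B16-IFNA4 tumor 10 and the lowest in B16-GFP tumor 7. On the log2 scale the mean was higher than in B16-GFP by 0.92 in B16-IFNA4 and by 0.53 in B16-IFNA9 tumors. The pooled SD within types was 0.738, below the first difference over all tumors and above the second. Without B16-IFNA4 tumors 1 and 10 the first difference was 0.61 and the pooled SD of the tumors kept 0.648, and without B16-GFP tumor 7 they were 0.72 and 0.654. The second difference fell to 0.33 without B16-GFP tumor 7. B16-IFNA9 against B16-IFNA4 was −0.40 over all tumors, −0.08 without B16-IFNA4 tumors 1 and 10, −1.23 without Ighm and −1.46 over V segments alone. Without Ighm the differences from B16-GFP were 1.31 and 0.08, and over V segments alone they were 1.16 and −0.30. These sums describe the segments and were not tested.

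In the comparison of B16-IFNA4 with B16-GFP, 8 segments, all constant genes, had a mean of at least 10 counts and were tested, and 218 were not. Of the 8, 5 were higher (Ighm, Ighd, Ighg1, Ighg2b, Ighg2c) and 0 lower by edgeR's quasi-likelihood test at a Benjamini-Hochberg adjusted p under 0.05. In this comparison 65.4% of the 15926 genes tested were called, 31.3% as higher. Ighg2b, Ighg2c and Iglc3 reached the filter only through B16-IFNA4 tumors, with a mean under 10 counts over the other types together. Ighg2b and Ighg2c had to differ in order to be tested, so the counts over the 8 support nothing about the segments as a group. Of the other 5, 3 were higher in B16-IFNA4 than in B16-GFP tumors, with a median log2 fold change of 0.78 against 0.01 for all genes tested. These 5 are not free of the limit, since Ighg1 had a mean of 8.2 counts in B16-GFP tumors and passed through the interferon types. In B16-IFNA9 against B16-GFP, 2 of 8 were higher (Ighd, Ighg1) and 0 lower, where 55.7% of all genes were called, 26.9% as higher and 28.9% as lower. Between B16-IFNA9 and B16-IFNA4, 0 were higher and 3 were lower in B16-IFNA9 tumors (Ighg2b, Ighg2c, Igkc), the first pair let in by their B16-IFNA4 counts, where 17.8% of all genes were called and 7.25% as lower. In the directions with 0 calls, 0 segments reached an unadjusted p under 0.05 by edgeR, and DESeq2 also called 0. None of the 8 had types that did not overlap, as 18.5%, 7.79% and 2.83% of all genes tested had in the 3 comparisons. The first and second comparison share the B16-GFP tumors.

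**Figure D1:**
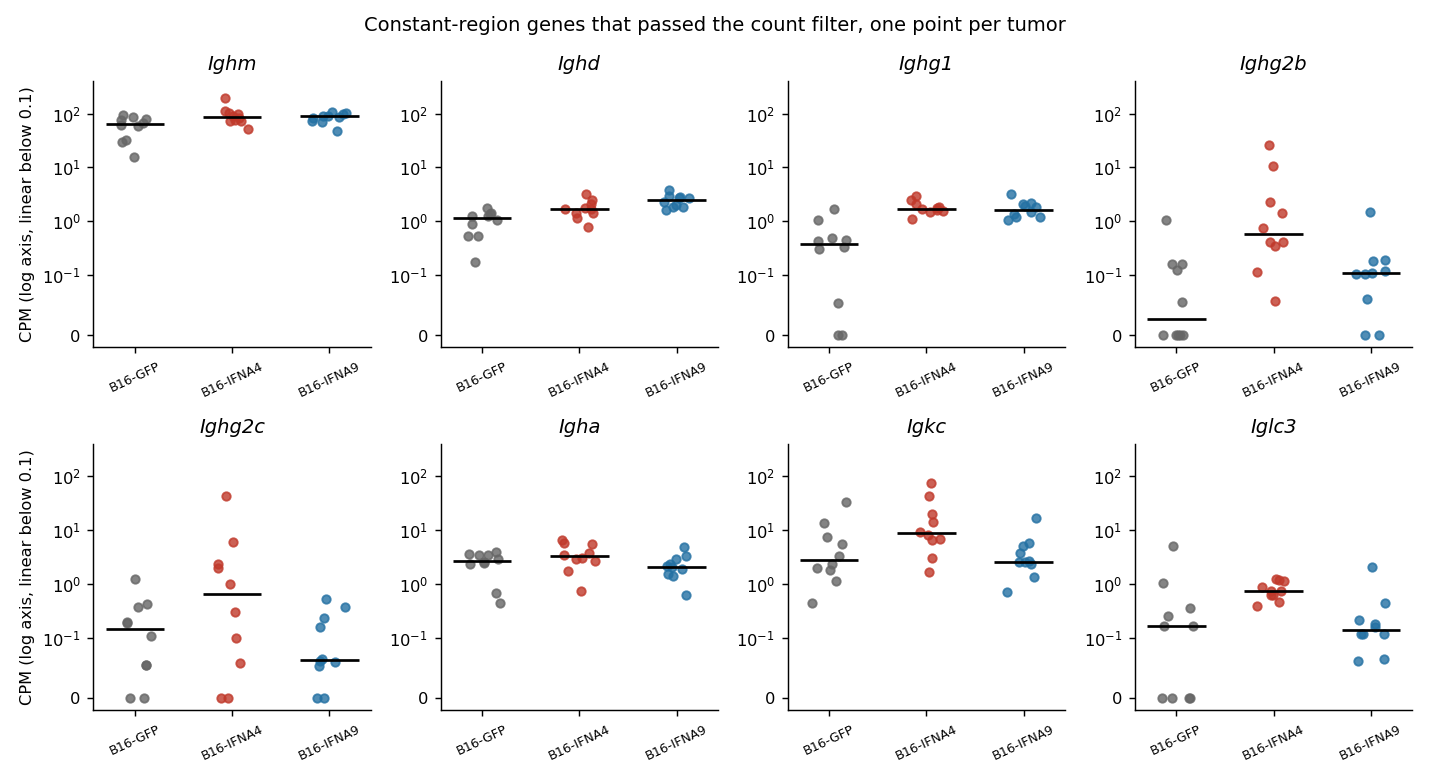
CPM of the 8 constant-region genes that were tested, one point per tumor (n = 10 per type), with a bar at the median; the vertical axis is logarithmic above 0.1 CPM and linear below it. Ighg2b reached 25.8 CPM and Ighg2c 42.2 CPM in single B16-IFNA4 tumors, while Ighg1 lay between 1.10 and 2.99 CPM in that type.

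Ighm, on chromosome 12 at 113418558 to 113422730 on the minus strand, had 15.3 CPM in the lowest, 64.4 in the median and 92.4 in the highest B16-GFP tumor. The values were 51.0, 85.4 and 192.3 CPM in B16-IFNA4 and 47.7, 88.1 and 106.7 CPM in B16-IFNA9 tumors. Most tumors of the 3 types lay in a common range, and B16-IFNA4 tumor 10 was the highest. Ighm was higher in B16-IFNA4 than in B16-GFP tumors by 0.66 on the log2 scale (SE 0.24, edgeR adjusted p = 0.0155). Without B16-IFNA4 tumor 10 the difference was 0.49 and no longer passed (edgeR adjusted p = 0.0562). In B16-IFNA9 tumors it was 0.51 (SE 0.24), which did not pass with edgeR (adjusted p = 0.0662) and did with DESeq2 (adjusted p = 0.0473).

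Ighd, the IgD constant region carried by naive B cells, was low throughout. It had 0.178, 1.16 and 1.75 CPM in the lowest, median and highest B16-GFP tumor, 0.793, 1.67 and 3.28 CPM in B16-IFNA4 and 1.60, 2.48 and 3.76 CPM in B16-IFNA9 tumors. Of the B16-IFNA9 tumors, 9 of 10 lay above every B16-GFP tumor. The log2 difference from B16-GFP was 0.78 (SE 0.26, edgeR adjusted p = 0.0106) in B16-IFNA4 and 1.25 (SE 0.26, edgeR adjusted p = 1.8e-04) in B16-IFNA9 tumors. The 2 interferon types did not differ in Ighd beyond the test's threshold (log2 difference 0.48, SE 0.25, edgeR adjusted p = 0.197).

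The IgG genes, which switched B cells and plasma cells use, fell into different patterns. Ighg1 (IgG1) had 0 to 1.71 CPM with a median of 0.383 in B16-GFP, 1.10 to 2.99 with a median of 1.72 in B16-IFNA4 and 1.05 to 3.15 with a median of 1.65 in B16-IFNA9 tumors. No tumor carried it alone: the highest tumor held 52 of the 326 Ighg1 counts in B16-IFNA4 and 53 of the 303 in B16-IFNA9. The log2 difference from B16-GFP was 1.90 (SE 0.41, edgeR adjusted p = 1.64e-04) in B16-IFNA4 and 1.82 (SE 0.41, edgeR adjusted p = 3.91e-04) in B16-IFNA9 tumors.

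Ighg2b and Ighg2c (IgG2b and IgG2c) had most of their B16-IFNA4 counts in a pair of tumors instead. Ighg2c had 0 to 14 counts in B16-GFP and 0 to 9 in B16-IFNA9 tumors, but 682 in B16-IFNA4 tumor 1 and 101 in tumor 10. Ighg2b had 174 counts in B16-IFNA4 tumor 1 and 423 in tumor 10, against at most 19 in any B16-GFP and 28 in any B16-IFNA9 tumor. Together these 2 tumors held 88.7% of the Ighg2c and 85.4% of the Ighg2b counts of their type. The other 8 B16-IFNA4 tumors had 0 to 41 counts of Ighg2c (median 4) and 1 to 39 of Ighg2b (median 7.5). Their mean counts were 3.8 and 2.8 in B16-GFP and 2.7 and 4.3 in B16-IFNA9 tumors, under the filter of 10, and 88.3 and 69.9 in B16-IFNA4 tumors, so their differences describe genes that were tested because they were high there. Over all 10, the log2 difference from B16-GFP was 4.44 for Ighg2c (SE 1.03, edgeR adjusted p = 4.20e-04) and 4.61 for Ighg2b (SE 1.00, edgeR adjusted p = 2.07e-04). Without tumors 1 and 10, an alternative added after seeing the data, the Ighg2c difference was 1.53 and did not pass (edgeR adjusted p = 0.0868), while that of Ighg2b was 2.09 and still passed (edgeR adjusted p = 0.0246). Ighm was the other call lost, at 0.45 (edgeR adjusted p = 0.0937), so that 3 of 8 segments were called higher in place of 5.

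With the same limit, B16-IFNA9 tumors were lower than B16-IFNA4 tumors by 5.05 log2 units in Ighg2c (−5.05, SE 1.07, edgeR adjusted p = 0.00126) and by 4.07 in Ighg2b (−4.07, SE 0.95, edgeR adjusted p = 0.00297). Without B16-IFNA4 tumors 1 and 10, 0 of 8 segments were called in this comparison by edgeR, with 2 at an unadjusted p under 0.05, and DESeq2 was not run on this subset. The differences were then −2.15 in Ighg2c, −1.55 in Ighg2b and −1.01 in Igkc, the kappa constant gene. Ighg3 (IgG3) was not tested. It had 44 of its 45 B16-GFP counts in tumor 6 and 58 of 85 B16-IFNA4 counts in tumor 10. Ighe (IgE) had 3 counts in all, in 2 B16-IFNA4 tumors.

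Igha, the IgA constant region, did not differ beyond the threshold in any comparison. Its medians were 2.71 CPM in B16-GFP, 3.26 in B16-IFNA4 and 2.11 in B16-IFNA9 tumors, with overlapping ranges. The log2 differences were 0.48 (SE 0.34), −0.16 (SE 0.35) and −0.65 (SE 0.34) for B16-IFNA4 against B16-GFP, B16-IFNA9 against B16-GFP and B16-IFNA9 against B16-IFNA4.

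**Figure D2:**
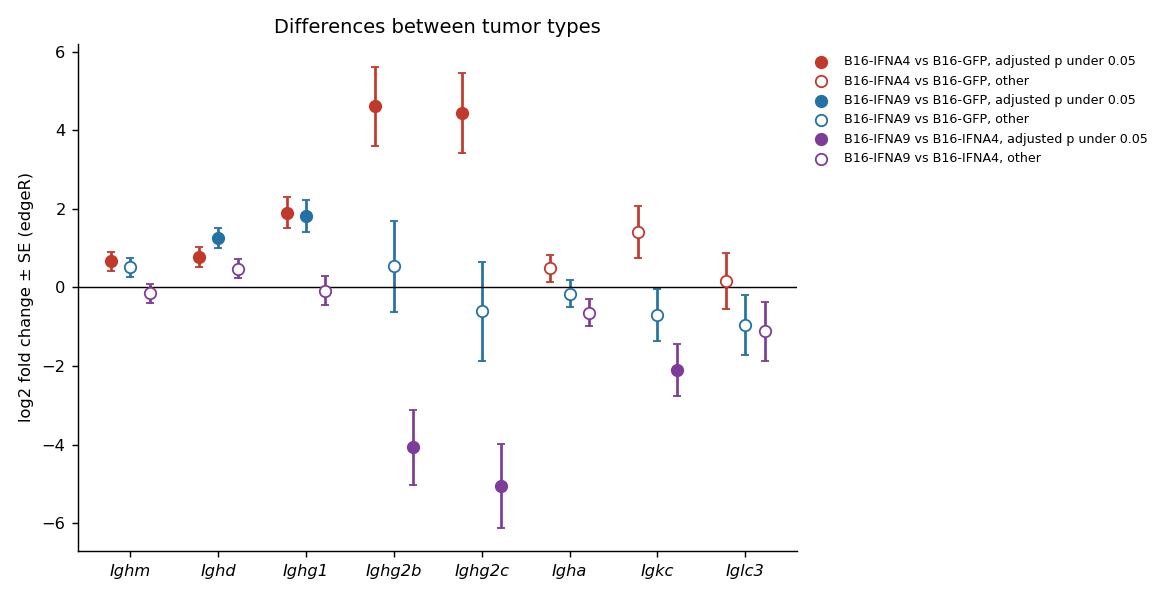
Log2 fold change with its SE (edgeR) of the 8 tested segments in the 3 comparisons; filled points have an adjusted p under 0.05. Ighg2b and Ighg2c have the longest bars, and Ighd and Ighg1 are filled in both comparisons with B16-GFP.

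Among the light chains, Igkc varied widely within types. It had 0.446, 2.84 and 32.7 CPM in the lowest, median and highest B16-GFP tumor. The values were 1.64, 8.83 and 74.2 CPM in B16-IFNA4 and 0.704, 2.60 and 16.5 CPM in B16-IFNA9 tumors. Single tumors held large shares: tumor 6 had 44.9% of the B16-GFP counts, tumor 10 had 38.7% of those of B16-IFNA4 and tumor 5 had 308 of the 770 of B16-IFNA9. Igkc was lower in B16-IFNA9 than in B16-IFNA4 tumors (log2 difference −2.10, SE 0.67, edgeR adjusted p = 0.0273). Leaving out B16-IFNA4 tumor 1 or 10 or B16-IFNA9 tumor 10 ended this call, with edgeR adjusted p from 0.0516 to 0.105. B16-IFNA4 against B16-GFP gave 1.41 (SE 0.65), which did not pass (edgeR adjusted p = 0.0579). It passed with DESeq2 (1.44, adjusted p = 0.0415) and with library totals in place of TMM (edgeR adjusted p = 0.0485). It also passed without B16-GFP tumor 6 or 8 among others, with edgeR adjusted p from 0.00419 to 0.0492 over 7 tumors left out in turn. Without B16-IFNA4 tumors 1 and 10 together it fell to 0.31 (edgeR adjusted p = 0.665).

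The lambda genes had few counts. Iglc3 had 90 of its 121 B16-GFP counts in tumor 8, where the lambda V segments Iglv1 and Iglv3 also had 61 and 30 counts. Iglc3 lay between 0.396 and 1.22 CPM in B16-IFNA4 tumors, and 39 of its 65 B16-IFNA9 counts were in tumor 4. It passed in no comparison over all tumors. Without B16-GFP tumor 8 it was higher in B16-IFNA4 tumors by 1.86 (edgeR adjusted p = 0.0131). Without B16-IFNA9 tumor 4 the differences of that type from B16-GFP and from B16-IFNA4 were −2.03 and −2.19 (edgeR adjusted p = 0.0283 and 0.0480). Iglc1 had a mean just under the filter and was not tested, with 187 counts in B16-IFNA4, 66 in B16-GFP and 46 in B16-IFNA9 tumors. Iglc2 had 56, 77 and 34 counts in the same order. The kappa share of constant light chain counts was lowest in B16-GFP tumor 7, at 35.7% of 14 counts (95% Wilson interval 16.3% to 61.2%), and in B16-IFNA9 tumor 4, at 47.5% of 99 counts (37.9% to 57.2%). Its median was 86.9% in both B16-GFP and B16-IFNA4 and 83.9% in B16-IFNA9 tumors.

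Heavy and light chain constant regions were set against each other per kilobase of exon. The ratio of Ighm to Igkc had a median of 5.06 in B16-GFP, 2.71 in B16-IFNA4 and 7.87 in B16-IFNA9 tumors, and it ran from 0.671 in B16-IFNA4 tumor 1 to 28.4 in B16-IFNA9 tumor 3. It was below 1 in B16-GFP tumor 6 and in B16-IFNA4 tumors 1 and 10, the tumors with the most Igkc counts. Ighm took 61.9% of heavy chain constant counts in B16-IFNA4 tumor 1 (95% Wilson interval 60.01% to 63.7%) and 81.3% in tumor 10. In the B16-GFP tumors it took 88.9% to 94.6% and in the B16-IFNA9 tumors 89.8% to 94.99%.

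V segments had 1253 counts in B16-GFP, 2923 in B16-IFNA4 and 764 in B16-IFNA9 tumors. Per tumor the lowest, median and highest sums were 14, 55 and 454 in B16-GFP, 11, 122 and 1074 in B16-IFNA4 and 21, 41.5 and 287 in B16-IFNA9. B16-IFNA4 tumors 1 and 10 held 59.5% of their type's V counts, and the other 8 had a median of 111.5 V counts, between 11 and 422. The number of V segments with a count ran from 5 in B16-GFP tumor 10 to 102 in B16-IFNA4 tumor 10, with 85 in B16-GFP tumor 6 and 77 in both B16-GFP tumor 8 and B16-IFNA4 tumor 1.

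**Figure D3:**
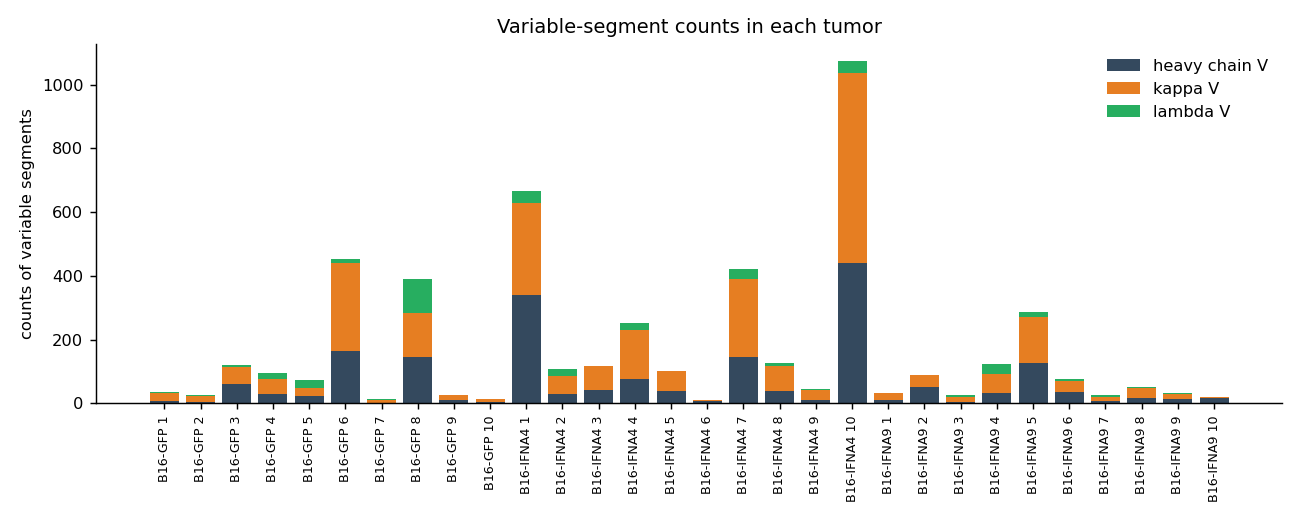
Counts of heavy chain, kappa and lambda V segments stacked for each of the 30 tumors. B16-IFNA4 tumor 10 has 1074 V counts and tumor 1 has 666, followed by B16-GFP tumor 6 with 454.

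The V families were unequal. The 56 Ighv1 segments held 65.9% of heavy chain V counts, and the 28 Igkv4 and 8 Igkv1 segments held 26.4% and 18.5% of kappa V counts. Iglv1 held 61.2% of lambda V counts. Of the 130 V pseudogenes listed, 25 had a count, with 150 counts in all, against 4790 counts in 180 of the 216 V genes annotated as functional.

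Some V segments were concentrated in single tumors. Of the 22 with at least 50 counts, 10 had over 50% of them in 1 tumor. The minimum was set on counts over all tumors, so the tumor with the most counts could itself bring a segment to 50. B16-IFNA4 tumor 10 held 36.7% of all V counts of its type. Ighv1-4 had 62 of 85 counts and Igkv14-111 had 100 of 145 in B16-IFNA4 tumor 1. The tumor also held all 44 counts of Ighv1-12 and 44 of 81 of Igkv12-44, both chosen after their values were seen. Igkv4-55 had 113 of 159, Ighv5-17 had 35 of 51, Ighv1-80 had 64 of 99 and Igkv12-46 had 66 of 126 in B16-IFNA4 tumor 10. Igkv4-86 had 34 of 50 in B16-IFNA4 tumor 7, which also had 54 of the 115 counts of Ighv1-18. Tumors 1 and 10 are also those with the most Ighg2b and Ighg2c counts. Of the segments named for tumor 10, Igkv4-55 also had 26 counts in tumor 1.

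Other abundant V segments were spread over more tumors. Igkv1-117 had 83 counts in B16-IFNA4 tumor 4, 61 in B16-GFP tumor 6 and 44 in B16-IFNA4 tumor 10. Igkv1-110 had 72 of 186 and Ighv1-26 had 57 of 181 in B16-IFNA4 tumor 10. Iglv2 had 114 counts, with 18 in its highest tumor. In B16-IFNA4 tumor 4, Igkv1-117 made up 54.2% of kappa V counts, and in tumor 1 Igkv14-111 made up 34.6%.

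**Figure D4:**
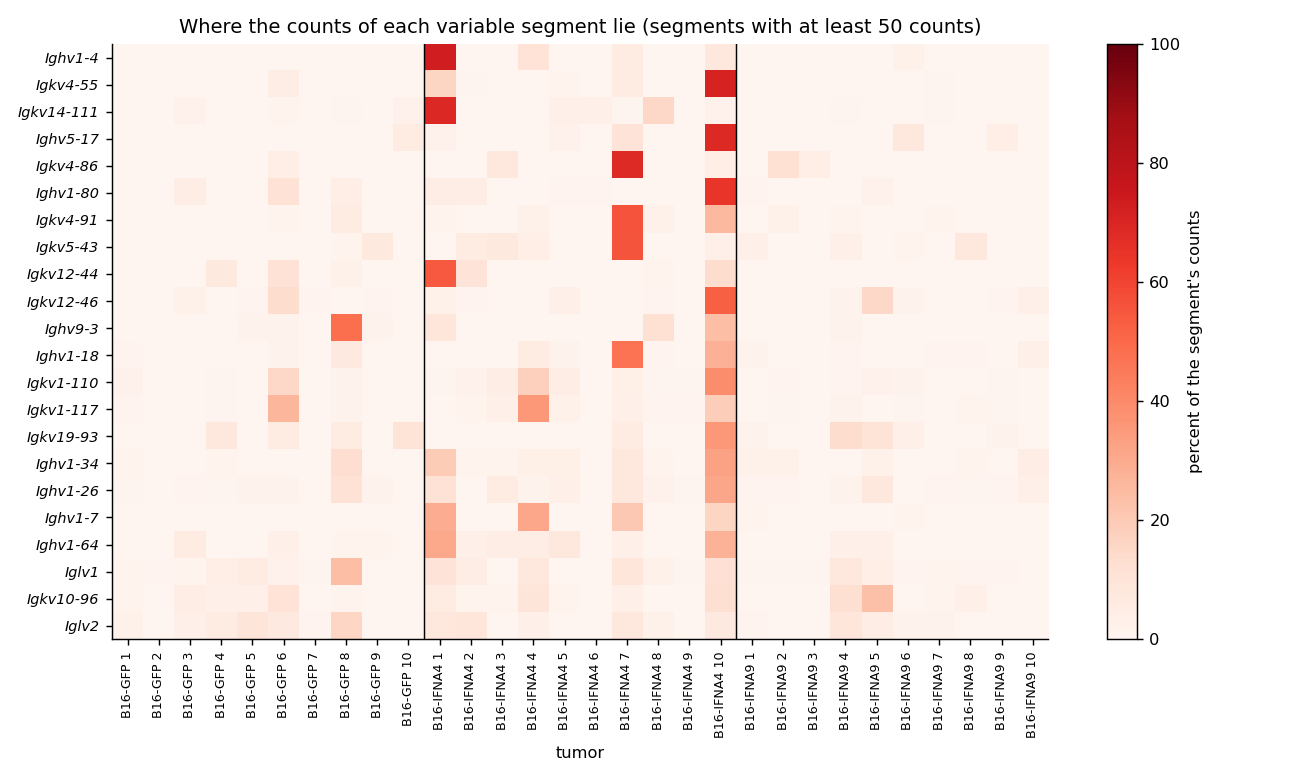
Percent of each V segment's counts found in each of the 30 tumors, for the 22 V segments with at least 50 counts, ordered from the most concentrated at the top; vertical lines part the 3 types. The darkest cells lie in B16-IFNA4 tumors 1, 7 and 10, with 72.9% for Ighv1-4 in tumor 1.

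The heavy chain J segments are short (48 to 54 coding bases), and joining and diversity segments gave few counts. Ighj1, Ighj2, Ighj3 and Ighj4 had 52, 34, 21 and 38 counts. By tumor, heavy chain J counts ran from 0 to 5 in B16-GFP, from 3 to 22 in B16-IFNA4 and from 1 to 7 in B16-IFNA9. The kappa J segments had 8 counts in all, and 1 lambda J and 1 heavy chain D segment had 1 count each.

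Genes of the B lineage were read beside the segments. Of 43 listed, 38 were among the genes counted and 25 passed the filter. In B16-IFNA4 against B16-GFP, 20 were higher and 1, Txndc5, was lower (median log2 difference 1.05), where 31.3% of all genes tested were higher and 34.1% lower. In B16-IFNA9 against B16-GFP, 13 were higher and 1 lower (median 0.61), where 26.9% and 28.9% of all genes were. In B16-IFNA9 against B16-IFNA4, 0 were higher by edgeR or DESeq2, with 0 at an unadjusted p under 0.05, and 5 were lower: Cd72, Fcrl1, Jchain, Pax5 and Pou2f2 (median −0.27). In that comparison 17.8% of all genes were called, 7.25% as lower. The count of 5 became 11 without B16-GFP tumor 7, where 1754 of the 15926 genes were lower in place of 1154, and 12 in a fit of the 2 types alone, where 1975 of 15925 were. Fcrl1 passed the filter only through B16-IFNA4 tumors, and 4 of the 25 (Fcer2a, Fcrl1, Fcrla, Pax5) had a mean under 10 counts in B16-GFP tumors.

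Pax5, the transcription factor that keeps B cell identity, had 0 to 0.437 CPM in B16-GFP, 1.15 to 6.47 in B16-IFNA4 and 0.591 to 2.34 in B16-IFNA9 tumors. Both interferon types lay wholly above B16-GFP tumors. The log2 difference was 3.95 (SE 0.38, edgeR adjusted p = 4.39e-10) and 2.54 (SE 0.39, edgeR adjusted p = 3.42e-06). Ikzf3, a lymphoid transcription factor also used by T and NK cells, rose by 3.64 and 3.10. Cd180, a receptor of B cells and myeloid cells, rose by 3.14 and 2.55.

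The B cell surface genes Ms4a1, Cd79a and Cd79b were low in these tumors. Ms4a1, which encodes CD20, had 0 to 25 counts in any tumor and was not tested. Cd79a and Cd79b, the signaling chains of the B cell receptor, had at most 17 and 33 counts. Per kilobase of exon, the median of Ighm in B16-IFNA4 tumors was 45.3 CPM against 0.185 CPM for Cd79a. Cd79b did not differ beyond the threshold in any comparison, and Cd79a was not tested.

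Jchain, which links IgM and IgA chains in secreting cells, had medians of 1.03 CPM in B16-GFP, 2.28 in B16-IFNA4 and 0.674 in B16-IFNA9 tumors. B16-IFNA4 against B16-GFP gave a log2 difference of 1.07, which did not pass with edgeR (adjusted p = 0.0780) and did with DESeq2 (adjusted p = 0.0499) or without B16-GFP tumor 3 or 6 or B16-IFNA4 tumor 6. It was 0.35 without B16-IFNA4 tumors 1 and 10 (edgeR adjusted p = 0.566). Jchain was lower in B16-IFNA9 than in B16-IFNA4 tumors (log2 difference −1.78, SE 0.55, edgeR adjusted p = 0.0232). B16-IFNA4 tumors 1 and 10 held 140 and 148 of the 583 Jchain counts of their type. Without tumor 1 the difference was −1.52 (edgeR adjusted p = 0.0567), without tumor 10 it was −1.50 (edgeR adjusted p = 0.0637), and without both it was −1.06 (edgeR adjusted p = 0.202), so the call was lost each time. Among the other plasma cell genes, Prdm1 and Irf4, transcription factors also used by T cells, rose in B16-IFNA4 against B16-GFP by 0.69 and 0.83. In B16-IFNA9 tumors Irf4 rose by 1.08, and Prdm1 differed by 0.46, which did not pass with edgeR (adjusted p = 0.0666). Tnfrsf13b, a receptor for B cell survival factors, rose by 1.25 and 1.03 in B16-IFNA4 and B16-IFNA9, and Txndc5, an endoplasmic reticulum enzyme, was lower by 0.34 and 0.40 (−0.34 and −0.40). Sdc1, a plasma cell and epithelial surface gene, did not pass in any comparison. Xbp1, a regulator of secretion, rose by 0.14 in B16-IFNA4 tumors.

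**Figure D5:**
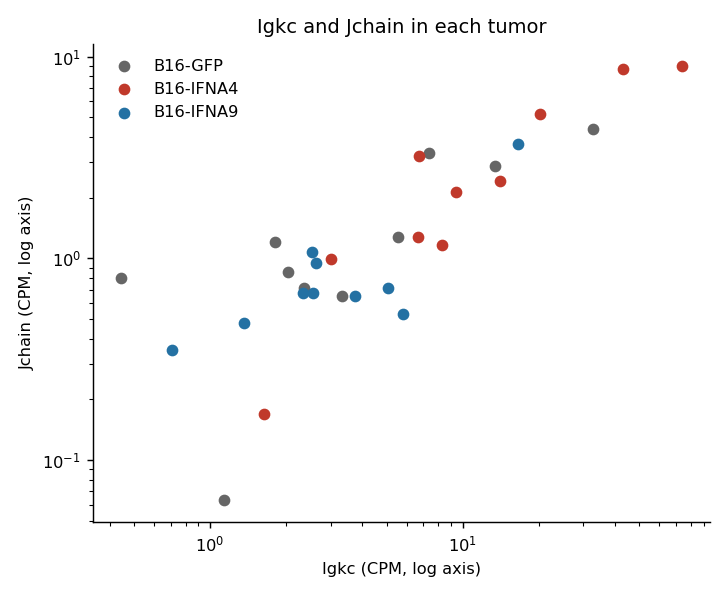
CPM of Igkc and Jchain in each tumor, both axes logarithmic, colored by tumor type (n = 10 each). B16-IFNA4 tumors run together from low to high in both genes (r = 0.93).

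Within types, 12 relations between single genes were computed on log2 CPM over 10 tumors each, with permutation p-values of 100000 resamples adjusted over the 12. Igkc and Jchain rose together in B16-IFNA4 tumors (r = 0.93, adjusted permutation p = 9.60e-04, raw 8.00e-05; Spearman's rho 0.90, adjusted permutation p = 0.0116, raw 9.70e-04). Without the 2 tumors farthest from the median Igkc, r was 0.88. In B16-GFP tumors r was 0.77 (adjusted permutation p = 0.0312, raw 0.00933), rho was 0.75 (adjusted permutation p = 0.0687, raw 0.0172), and r was 0.83 without 2 tumors. In B16-IFNA9 tumors r was 0.78 (adjusted permutation p = 0.0312, raw 0.0121) with rho 0.49 (adjusted permutation p = 0.310, raw 0.155). There r fell to −0.0029 without 2 tumors, so the relation rested on them.

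Ighm and Cd79b had r = 0.87 in B16-GFP tumors (adjusted permutation p = 0.00486, raw 8.10e-04; rho 0.77, adjusted permutation p = 0.0687, raw 0.0127; r = 0.82 without 2 tumors). In B16-IFNA4 and B16-IFNA9 tumors r was 0.68 and 0.11, and neither passed. Ighm and Cd79a had r = 0.71 in B16-IFNA4 tumors (adjusted permutation p = 0.0312, raw 0.0130; rho 0.68, adjusted permutation p = 0.105, raw 0.0351), and r was 0.42 without 2 tumors. In B16-GFP and B16-IFNA9 tumors r was 0.0048 and −0.24, neither of which passed, and −0.56 and −0.12 without 2 tumors. Igkc and Ptprc, the pan-leukocyte gene CD45, did not pass in any type, with r of 0.40, 0.30 and −0.49 and rho of 0.03, 0.19 and −0.10 in B16-GFP, B16-IFNA4 and B16-IFNA9 tumors. Without 2 tumors r was −0.03, 0.27 and 0.60, so that its sign turned in B16-GFP and B16-IFNA9 tumors.

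Markers of other cell types moved with the same comparisons. In B16-IFNA4 against B16-GFP, 3 of 3 leukocyte genes, 7 of 7 T cell genes, 4 of 4 NK cell genes and 5 of 5 plasmacytoid dendritic cell (pDC) genes were higher, as were 3 of 4 macrophage and monocyte genes, against 31.3% of all genes tested. Of 3 neutrophil genes tested, Csf3r was higher and S100a8 and S100a9 were lower. In B16-IFNA9 against B16-GFP, 3, 6, 4, 4 and 3 genes of these 5 lists, in the same order, were higher, against 26.9% of all genes. In B16-IFNA9 against B16-IFNA4, 4 pDC genes and 2 each of the NK cell, macrophage and monocyte, and neutrophil genes were lower. Of all genes 7.25% were lower there, and no leukocyte or T cell gene was called. The summed T cell genes ran from 3.30 to 58.0 CPM in B16-GFP, 57.2 to 126.2 in B16-IFNA4 and 21.4 to 90.8 in B16-IFNA9 tumors. The summed leukocyte genes ran from 80.3 to 373.9, 579.2 to 1170 and 404.9 to 835.9 CPM in the same order, and none of these leukocyte genes was at 0 in a tumor. Of 9 factors of B cell attraction and survival, 6 were higher in B16-IFNA4 and 5 in B16-IFNA9 than in B16-GFP tumors, among them Tnfsf13b, which encodes BAFF (log2 differences 1.20 and 0.81). Of all genes tested, 31.3% and 26.9% were higher. The part of these cells in the immunoglobulin differences was not tested.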

How the data were processed

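Whole tumors, 10 of each type by their labels, which call them biological replicates, gave stranded mRNA libraries read as single 50-base reads. The authors checked reads with FastQC 0.11.3, aligned them with HISAT2 2.0.4 and used summarizeOverlaps to count reads in genes. The submitters' processing notes give the genome as mm10, while the study's methods name a different build, and which was used is not settled here. The annotation, overlap mode and strand setting are not given in the sources used here. The authors deposited raw counts, whole numbers with no normalization, and 39495 of 39676 identifiers matched GENCODE M21, which gave symbols, coordinates and transcripts.

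Counts were tested in R 4.3.3 with edgeR 4.0.16 (TMM, a minimum mean count of 10 per gene, one quasi-likelihood fit of all 30 tumors, Benjamini-Hochberg adjustment over 15926 genes, threshold 0.05). CPM used TMM-scaled totals, log2 CPM a prior count of 2, and summed CPM a small pseudocount. The fit was tested on simulated data with 199 changed genes among 15860, of which 94.0% were recovered for B16-IFNA4 against B16-GFP. In that comparison 8 unchanged genes were also called. The simulation gave every gene the same dispersion, so its recovery does not carry over to segments that varied widely within a type. Intervals are Wilson intervals at 95%. Alternatives were DESeq2 1.42.0 as a test and for size factors, library totals, other count filters, fits of 2 types and a replicate block. Each tumor was also left out in turn, as were B16-IFNA4 tumors 1 and 10 together, a step chosen after seeing the data. The sums without Ighm were not planned beforehand either.

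Named genes were all constant genes with a count, the 10 V segments with the highest mean CPM, the called segments, the 5 V segments most concentrated in 1 tumor, and the listed B lineage genes. The members and lists were chosen with earlier results of these data known. No pair of tumors of a type differed by less than sampling noise (chi-square per gene at least 14.1). Plots were drawn with Python 3.11.15 and matplotlib 3.10.9.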

Additional observations from a re-analysis of the deposited data

Results flagged for a closer look

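Each group of 10 tumors was searched for a highest or lowest tumor far from the rest. Over 108 groups of values, 16 stood out, where chance gives about 1 in 20, or 5.4. All values here are log2 CPM. Among the immunoglobulin genes, Ighg2b was high in B16-GFP tumor 8 (0.25, next −1.83) and in B16-IFNA9 tumor 5 (0.70, next −1.68). Iglc3 was high in B16-IFNA9 tumor 4 (1.15), and Ighm was low in B16-IFNA9 tumor 10 (5.58, next 6.15).

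Of the 16, 6 were low values in B16-GFP tumor 7: Bank1 at −1.08, Bcl6 at 3.86, Blnk at 1.66, Btk at 1.53, Ikzf3 at −1.38 and Prdm1 at 1.66. B16-IFNA9 tumor 10 was low in Bcl6 (5.38), Blnk (3.77) and Sdc1 (5.88). Cd22 was low in B16-IFNA4 tumor 4 (0.24). Jchain was high in B16-IFNA9 tumor 5 (1.93, next 0.25), the tumor with the most Igkc counts of that type, and Spib was high in B16-GFP tumor 8 (3.55, next 0.64).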

How the results depend on the processing

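Counts of called segments depended on the filter and on 2 tumors. For B16-IFNA4 against B16-GFP, B16-IFNA9 against B16-GFP and B16-IFNA9 against B16-IFNA4, 5, 2 and 3 segments were called. A mean of at least 1 count (64 segments tested) gave 31, 4 and 19, and no filter (226 tested) gave 58, 13 and 22. These included segments lower than in B16-GFP, where there were 0 before: 3 and 12 in B16-IFNA4 and 1 and 6 in B16-IFNA9 tumors under these settings. The called share of segments was 48.4%, 6.25% and 29.7% under the first and 25.7%, 5.75% and 9.73% under the second setting, against 53.8%, 45.1% and 13.4% and 38.8%, 31.7% and 8.20% of all genes tested. edgeR's filterByExpr (6 tested) gave 3 in the first and 1 in the last. These were 50% and 16.7% of the segments, against 64.5% and 18.2% of all genes tested. Leaving out B16-IFNA4 tumors 1 and 10 gave 3 in the first and 0 in the last. Of all 15926 genes, that fit called 4655 higher and 5181 lower in the first and 1294 and 863 in the last. With 1 tumor left out, the counts ran from 4 to 7, 2 to 3 and 2 to 4. B lineage genes called ran from 19 to 22, 14 to 16 and 4 to 11, the last without B16-GFP tumor 7. DESeq2 gave 8 and a fit of the 2 types alone 12 in place of 5 for B16-IFNA9 against B16-IFNA4, where the calls over all genes went from 2833 to 3188 and 4338. The summed difference ran from 0.72 to 1.06, 0.33 to 0.66 and −0.53 to −0.22 with 1 tumor left out. Over V segments alone it was −0.30 for B16-IFNA9 against B16-GFP and −1.46 for B16-IFNA9 against B16-IFNA4, and −1.23 without Ighm in the latter. Spib for B16-IFNA9 against B16-GFP turned from −0.06, not called, to 0.95 with DESeq2 (adjusted p = 2.86e-04). Without B16-GFP tumor 8 it was 1.18 (edgeR adjusted p = 1.21e-04), so a call was gained in both. It ran from −0.18 to 1.18 over all tumors left out in turn. The cause was not tested.

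Replicate numbers did not pair the tumors: correlations of same-numbered tumors ran from −0.27 to 0.30. With the replicate number as a block, 5, 2 and 2 segments were called, and Igkc for B16-IFNA9 against B16-IFNA4 kept −2.10 but did not pass (edgeR adjusted p = 0.0746), nor did Jchain there (−1.70, edgeR adjusted p = 0.0838). Over 33 genes, 3759 of 3855 repeats kept direction and side of the threshold, 37 lost and 57 gained a call. Of those kept, 2913 were fits with 1 tumor left out, which stay close to the main fit by design. Without B16-IFNA4 tumors 1 and 10, 90 kept, 8 lost and 1 gained a call. Shifts between directions where neither fit passed counted as kept. Library totals raised the share of higher calls over all genes for B16-IFNA9 against B16-GFP from 4281 higher and 4595 lower to 5051 and 3610. Depth limits single V segments, of which 90 had under 10 counts.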

Other observations

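B16-GFP tumor 8 held high levels of several lymphoid genes at once. Cxcl13, a chemokine that attracts B cells, had 4587 counts there, or 259.1 CPM, against a median of 9.97 CPM in its type. Cd4 had 46.4 CPM against a median of 2.92, and Spib, a factor of B cells and pDCs, had 11.6 CPM against a median of 0.782. The same tumor had the most lambda counts of its type, with 134 over the lambda constant genes and 109 over the lambda V segments. These genes were set side by side after their values were seen, and their relation was not tested.

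Transport and receptor genes for antibodies moved apart. Fcgrt, which encodes the neonatal Fc receptor, was lower in B16-IFNA4 and B16-IFNA9 than in B16-GFP tumors, with log2 differences of −1.30 (SE 0.18) and −0.92 (SE 0.18) that passed edgeR's test. Fcer1g, the shared signaling chain of activating Fc receptors, was higher, by 1.28 and 0.85. Fcgr2b, the inhibitory Fc receptor, had differences of 0.07 and 0.21 that did not pass.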
